A study of Drosophila melanogaster with 4 samples.

Results

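Cone cells (CCs) of the Drosophila melanogaster eye were profiled by RNA sequencing as they passed from the larval to the pupal stage, and every gene was compared between the larval and the pupal library. These are 2 of the 4 libraries of the series, 1 per stage. A gene was called higher or lower when log2(value + 4) differed by 2 or more and the higher library held 32 units or more, a unit being 1 normalised read count. Of 14935 genes, 853 were called. Both libraries came from sev-; prosPSG-GFP; TM2/TM6B animals, in wandering larvae and at 25 h after puparium formation at 25°C, and GFP-positive cells were sorted from the pooled eye tissue of 45 to 75 animals. The prosPSG fragment is an enhancer of the gene pros that drives GFP in CCs and in R7 photoreceptors. R7 cells are missing in sev mutants, so both stages lack them, and every value refers to CCs of R7-less eyes. Antennae, brain and lamina were removed before dissociation. Adult CCs and adult photoreceptors (PRs), taken at 1 to 2 days, differ in genotype and in sorting from these libraries and are given only side by side.

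Each ommatidium of the fly eye holds a group of CCs above its PRs. CCs are recruited late, after most PRs, through Notch and EGF receptor signalling, while undifferentiated cells around them still divide. In the pupa they stop taking on new fates, tile the apical surface of the ommatidium, reach down between the PRs, and begin to secrete the material of the corneal lens and of the crystalline cone beneath it. Ecdysone pulses at the end of larval life and in the pupa set the time of these steps.

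The libraries were of similar depth by an estimate from the values themselves. Judged by the spacing of the lowest values, a single read was worth 0.597 units in the larval and 0.634 in the pupal library, which gives 2478000 and 2883000 reads on genes, so that the 32 units of the rule stood for about 53.6 and 50.5 reads. These depths are rough estimates, since only 53.1% and 38.4% of low values fitted the spacing. The paper states far more reads per sample than these depths, and the reason for the gap was not tested. More genes were above 0 in pupal CCs (12649) than in larval CCs (9344). The 3443 genes above 0 in pupal CCs alone had a median of 4.41 units there, far under the 32 units of the rule, and 138 genes were above 0 in larval CCs alone.

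Both libraries carried the genes that define CCs. The homeodomain gene ct stood at log2 levels of 9.64 in larval and 11.58 in pupal CCs, the Pax gene sv at 8.39 and 8.99, pros at 10.43 and 9.72, and the adhesion gene Fas3 at 9.51 and 10.60. None of the 9 CC markers passed the rule. The lens protein gene Cry (now Crys) was listed at 0 in larval CCs and stood at 2.15 in pupal CCs, against 12.88 in adult CCs. Several PR end products were at or near 0: the opsin genes ninaE and Rh3 and the arrestin gene Arr2 were listed at 0 at both stages, and Rh4, Arr1, trp and chp lay at 2.09 or below. Other phototransduction genes were not near 0, since the phospholipase gene norpA stood at 8.73 and 8.92, against 15.38 in adult PRs, and the kinase gene ninaC reached 7.04 in pupal CCs. General neuronal genes were also well above 0. The RNA-binding protein gene elav stood at 10.75 and 10.87, and futsch, a microtubule-associated protein gene of PRs and bristle neurons, at 10.31 and 10.49. For elav the adult CC and PR levels were 8.74 and 10.91, so the larval and pupal CC libraries held as high a level of this neuronal gene as adult PRs. The 12 PR markers, of which elav is 1, had sums of 2627 units at the larval and 2691 at the pupal stage, with 6 and 3 of them listed at 0. The part of neurons in the results below was not tested, and in sorted bulk samples fewer cells of a type and less RNA per cell cannot be told apart.

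Calls were unequal in the direction they took. Of 14935 genes, 693 rose (4.64%) and 160 fell (1.07%), and 14082 were not called. Among the 9297 genes at 8 units or more in either library, 7.45% rose and 1.72% fell, with a median difference of 0.38. Of the genes that rose, 559 were above 0 in both libraries and 134 were listed at 0 in larval CCs. With equal library totals, which multiply larval values by 1.24 relative to pupal ones, 595 genes rose and 220 fell, and the median difference became 0.11. Some called genes named in the descriptions of lists below missed the rule with that scaling. They were Actbeta, bt, CG1988, CG31030, Con, Cpr92F, Glut1, Hsp67Bc, mub, Notum, Nplp1, rdgC, spir, Tl and Tsp42Ej. Each stage has 1 library, so no difference has a replicate check and none carries a p-value. Adding 4 units to every value understates the change of low genes.

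**Figure D1:**
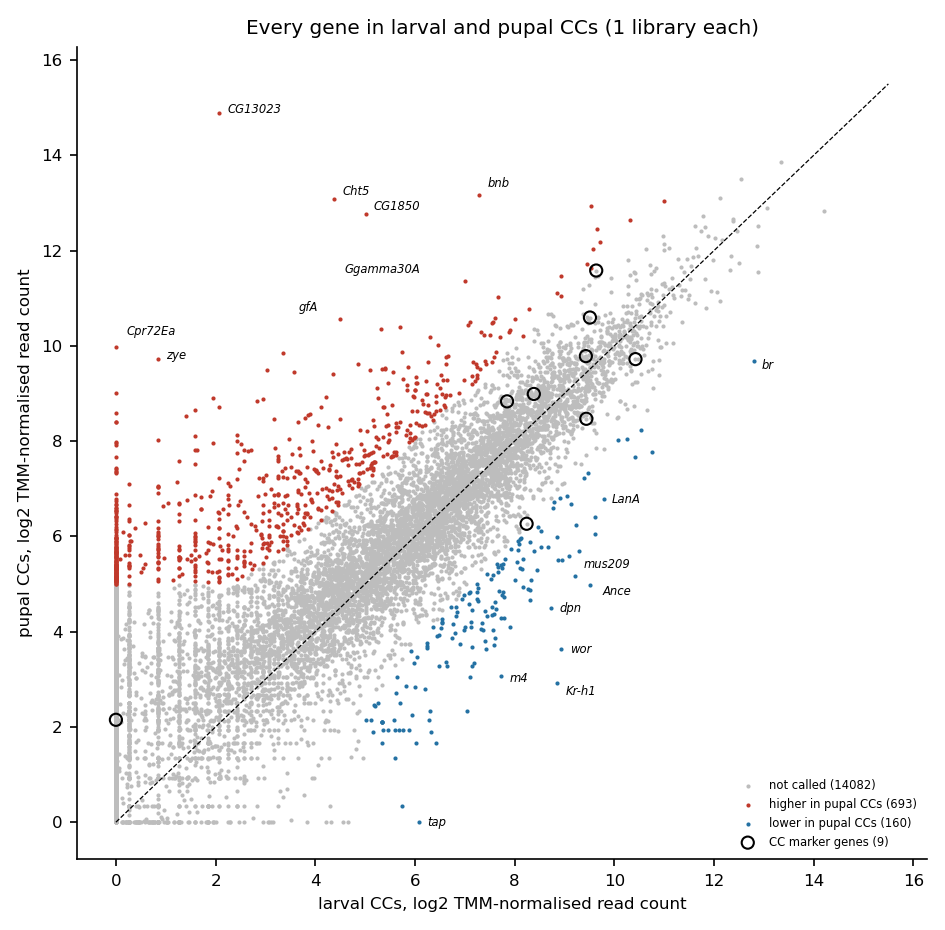
Log2 TMM-normalised read counts of each gene in larval CCs (x axis) and pupal CCs (y axis), with 693 genes called higher in red, 160 called lower in blue and the 9 CC markers circled. The markers lie among the uncalled genes, while CG13023, Cht5 and zye stand far above the dashed line of equality and Kr-h1, wor and tap far below it.

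The genes with the largest rises encode secreted, matrix or membrane proteins in most cases where a role is known. CG13023, a gene known by a number alone, had the largest rise of all, from 2.06 to 14.88 on the log2 scale, a difference of 11.85. Its level in adult CCs was 7.17. Cht5, a chitinase of the moulting fly, rose from 4.39 to 13.09 (difference 8.45). CG1850 rose from 5.01 to 12.77, and its adult CC level was back at 5.85. The chitin-binding cuticle protein gene Cpr72Ea was listed at 0 in larval CCs and stood at 9.97 in pupal CCs. Other genes among the 20 with the largest rises were zye, Muc30E, Muc96D, Mur89F and Cpr100A of the apical matrix, the PDGF- and VEGF-related growth factor gene Pvf3 (1.96 and 8.90), the odorant-binding protein gene Obp44a (3.58 and 9.44) and the salivary glue gene Sgs1 (0 and 8.39). Genes known by a number alone, CG31556 (0 and 9.00), CG43332 (0 and 8.40), CG34247 (3.34 and 9.85) and CG31772 (0.84 and 8.02), were among them too. Over all calls, 368 of the 693 genes that rose (53.1%) and 40 of the 160 that fell (25.0%) have a CG or CR number as their symbol in the deposited table, some of which carry names in later annotations. The share of such symbols over all genes was not counted, so no excess can be read from these shares.

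The genes with the largest falls were of another kind. Kr-h1, the zinc finger gene of the juvenile hormone response, fell from 8.86 to 2.93, a difference of -5.33, the largest fall of all. The Snail-family gene wor of neural stem cells fell from 8.94 to 3.63. Ance, a secreted peptidase of the angiotensin-converting enzyme family, fell from 9.51 to 4.99. Further genes among the 20 with the largest falls were mus209, the PCNA gene of DNA replication (9.21 and 5.16), vfl, the early zinc finger activator Zelda (8.95 and 5.50), the non-coding RNA gene CR43283 (cherub) of neural stem cell divisions (10.77 and 7.77), the integrin gene if (8.33 and 5.09) and CG14516 (8.31 and 4.87). Transcription factor and cell division genes thus made up most of the named genes in this set.

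Genes of cell division were frequent among those that fell. Of 124 measured genes in 5 cell cycle lists, 37 fell (29.8%), 0 rose and 87 were not called, with a median of -1.39 (1.07% of all genes fell, with a median of 0.38 over those at 8 units or more). They made up 23.1% of all genes that fell. Of 9 neuroblast markers, of cells that divide, 6 were called lower in the same library. All 9 summed to 4458 and 2360 units, or to 2849 and 351.2 units without brat, the marker with the highest pupal level, which was not called. The part of neuroblasts in the falls of cell cycle genes was not tested. In the list of replication licensing and fork genes, 11 of 38 fell, and of the 37 at 8 units or more 36 lay below 0. The MCM genes encode the ring that licenses replication origins and unwinds DNA: Mcm2 fell from 7.11 to 3.04, dpa (Mcm4) from 7.42 to 3.63, Mcm7 from 8.26 to 4.89, Mcm5 from 7.54 to 4.34 and Mcm6 from 7.44 to 4.33. Of the genes that supply nucleotides and handle histones, 3 of 12 fell, among them both subunits of ribonucleotide reductase, RnrL (7.58 and 4.37) and RnrS (7.53 and 5.11). In the G1-S list 3 of 13 fell. These were the cyclin gene CycE (8.17 and 5.52), the pocket protein gene Rbf2 (6.77 and 4.15) and dap (8.12 and 5.34), which encodes an inhibitor of CycE kinase. An activator of S phase and its inhibitor therefore fell side by side.

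Mitotic genes moved in the same way. Of 26 genes of mitotic entry and exit, 9 fell and 0 rose (median -1.58). The anaphase activator gene fzy (Cdc20) fell from 8.86 to 5.51, the passenger complex gene Incenp from 8.17 to 4.94, and Cks30A, a subunit of the mitotic kinase, from 6.65 to 3.28. The kinase genes polo (9.23 and 6.24) and cdc2 (7.74 and 4.77) and the cyclin gene CycA (8.68 and 5.77) also fell. The phosphatase gene stg (Cdc25), the trigger of mitosis in fly embryos and discs, stood at 9.64 and 8.18 and was not called. Of 35 kinetochore, spindle and cytokinesis genes 11 fell and 0 rose (median -1.37), led by the citron kinase gene sti (8.31 and 4.66) and both centralspindlin genes, tum (7.79 and 4.28) and pav (7.57 and 4.04). The spindle pole gene asp, the midzone gene feo and the kinesin-5 gene Klp61F fell as well, from 8.45 to 5.29, from 7.13 to 4.10 and from 7.27 to 4.65. Calls were few among genes of growth. None of 31 ribosome biogenesis genes, 91 cytosolic ribosomal protein genes or 73 mitochondrial ribosomal protein genes was called, with medians of -0.45, 0.10 and 0.31, and the median of the cytosolic ribosomal proteins became -0.20 with equal library totals. Of 50 translation initiation and elongation factor genes 1 rose and 1 fell, as given below.

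**Figure D2:**
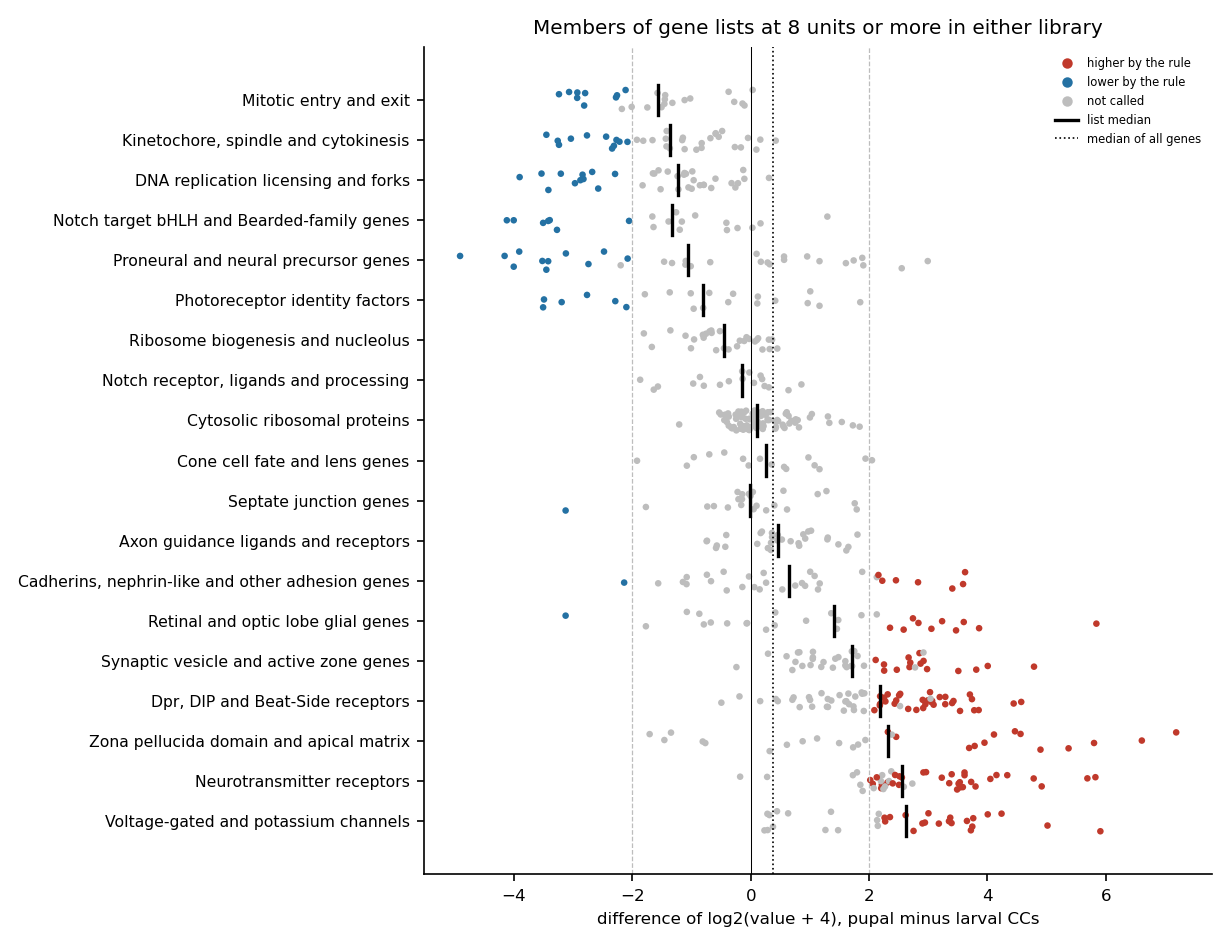
Difference of log2(value + 4) between pupal and larval CCs (x axis) for each member, at 8 units or more in either library, of 19 gene lists (y axis), with called genes in red and blue, list medians as black bars and the median of all genes (0.38) as a dotted line. Mitotic genes have a median of -1.58 and voltage-gated and potassium channels one of 2.62, with the CC fate genes near 0.

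Part of the genes of neural precursors fell. Of 34 proneural and neural precursor genes, 11 fell (32.4%), 0 rose and 23 were not called, with a median of -1.06. Of the 32 at 8 units or more 18 lay below 0 and 14 above. After wor the largest fall was that of tap, a bHLH gene of neuronal precursors, at 6.08 in larval CCs and listed at 0 in pupal CCs. The bHLH repressor gene dpn, a mark of neuroblasts, fell from 8.72 to 4.50. The zinc finger gene cas, part of the order in which neuroblasts make their daughters, fell from 7.05 to 2.34, the Snail gene sna from 7.59 to 3.71, and nab, which encodes a transcriptional cofactor, from 6.33 to 1.89. Of 9 neuroblast markers 6 fell, and their summed level went from 4458 to 2360 units, or from 2849 to 351.2 units without brat, which stood at 10.65 and 10.97 and was not called. The markers that fell include genes that act in asymmetric division, such as mira, which encodes the adaptor that carries Prospero protein into 1 daughter cell (7.15 and 3.67), and nerfin-1, a zinc finger gene of new neurons (10.43 and 7.66). Whether the RNA of these genes came from CCs or from other sorted cells was not tested. The proneural gene ato, which starts PR formation in the morphogenetic furrow, was low at both stages (4.72 and 1.38).

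Part of the Notch target genes fell. Of 22 E(spl) bHLH and Bearded-family genes, 7 fell, 0 rose and 15 were not called (median -1.32). The Bearded-family genes m4 and Tom, which limit Notch ligand activity, fell from 7.73 to 3.08 and from 7.41 to 3.80. The bHLH repressor genes E(spl) (the m8 gene, 9.29 and 5.68), HLHmgamma (9.09 and 5.59) and Hey (7.61 and 3.87) fell as well. Not every gene of the complex did so. HLHm3 stood at 8.96 and 8.73 and HLHmbeta at 9.26 and 8.31, and neither was called. Of 18 genes for the receptor, its ligands and their processing, 0 were called, with a median of -0.14, and the difference between both lists was not tested: the receptor gene N stood at 10.77 and 9.12 and the ligand gene Dl at 8.72 and 7.85. The list of targets also holds dpn and Hey, which were counted among the precursor genes.

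**Figure D3:**
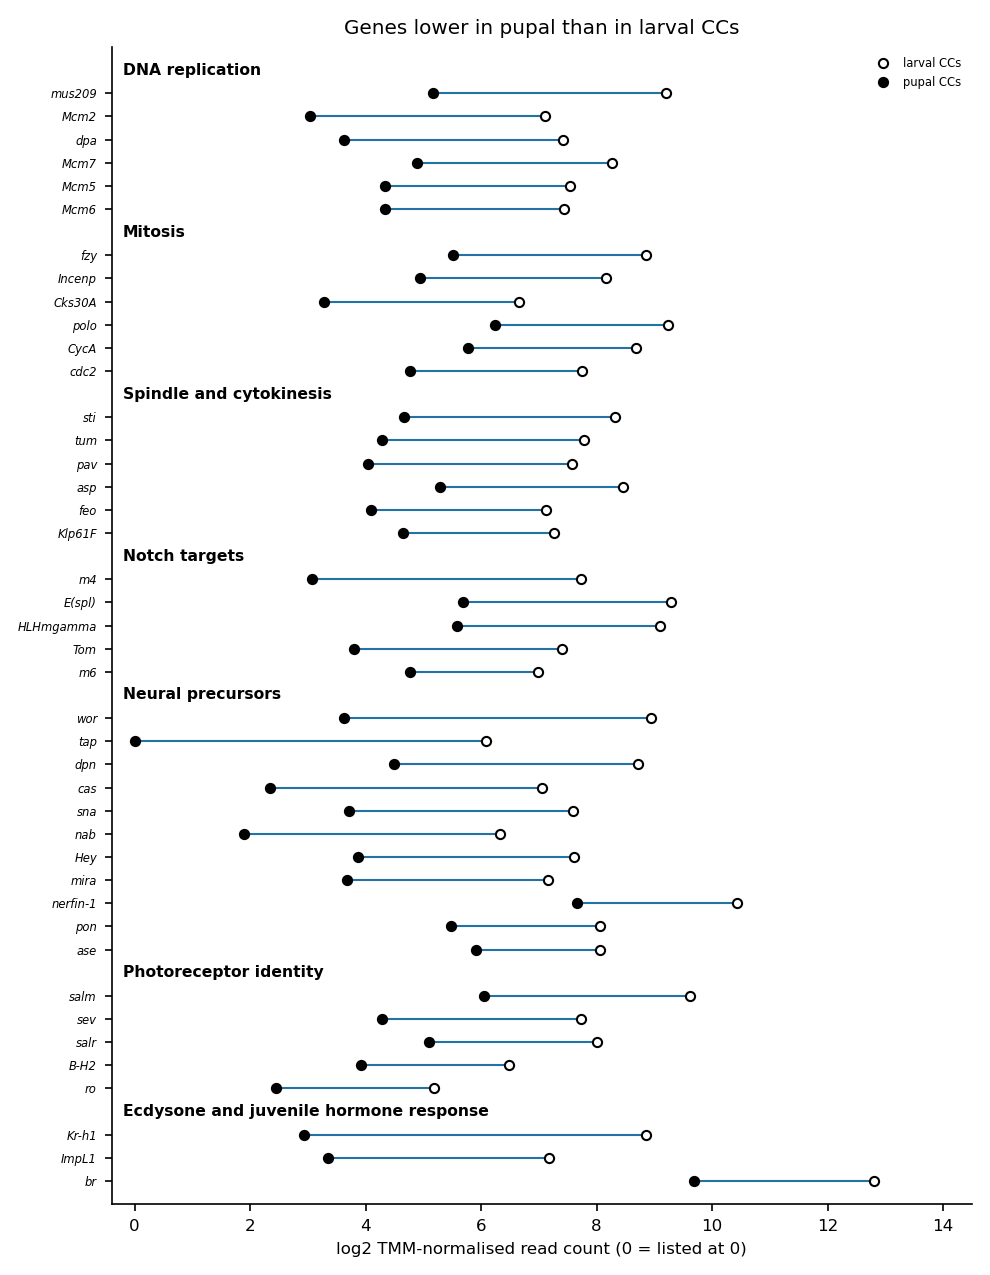
Log2 TMM-normalised read counts (x axis) of the genes with the largest falls in each of 7 groups (y axis), with open circles for larval CCs and filled circles for pupal CCs. In each group the filled circle lies to the left, from Kr-h1 (8.86 and 2.93) to m6 (6.98 and 4.77), and tap is listed at 0 in pupal CCs.

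Genes that respond to ecdysone and juvenile hormone changed in both directions. Of 42 genes in this list, 2 rose, 3 fell and 37 were not called (median 0.12, or -0.18 with equal library totals). The share that rose (4.76%) was near the 4.64% of all genes, and 7.14% fell, beside 1.07% of all genes. The zinc finger gene br, which marks the step from larva to pupa, fell from 12.80 to 9.68 and thus stood well above the 32 units of the rule at both stages. Kr-h1 fell as given above, and ImpL1, an ecdysone-inducible gene of imaginal discs, fell from 7.18 to 3.34. Eip93F, which encodes the E93 factor that directs adult differentiation in the pupa, rose from 7.32 to 10.29. The larger of both rises was that of the salivary glue gene Sgs1 (difference 6.41), also in this list and given above. The receptor gene EcR (7.84 and 9.72) and the response genes Eip74EF (6.79 and 8.75) and Blimp-1 (8.78 and 10.64) lay just under a difference of 2 and were not called. The precursor RNA of the let-7 microRNA cluster, CR43344, was singled out after its values were seen and stood at 3.78 and 6.41, which passed the rule. Kr-h1 thus ended below 8 units, br far above the 32 units of the rule despite its fall, and Eip93F above its larval level.

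Among genes of eye fate, some of PR identity fell. In the list of PR identity factors, 6 of 22 fell, 0 rose and 16 were not called (median -0.80). These 6 include E(spl), the m8 gene given above as a Notch target, which is no PR identity factor and had the largest fall in the list (-3.51). The others were salm, salr, B-H2, ro and sev. The Spalt zinc finger genes salm (9.61 and 6.04) and salr (8.00 and 5.09) act in R7 and R8. The Bar homeodomain gene B-H2 (6.49 and 3.93) acts in R1 and R6, and the homeodomain gene ro (5.19 and 2.45) in R2 and R5. The gene sev (7.72 and 4.28) encodes the receptor tyrosine kinase that recruits R7. The animals are mutant for sev, and its RNA level does not tell whether a protein is made. Of 24 retinal determination and furrow genes only B-H2 and ro, which are in both lists, fell. None of 18 CC fate and lens genes was called (median 0.25, or -0.05 with equal library totals), although ct and lz came close. The differences were 1.94 for ct and -1.92 for lz, a Runt-domain gene that prepares cells for the CC fate (8.24 and 6.27). In the list of EGF receptor and Sevenless pathway genes, which act in CC recruitment, vn rose (5.06 and 7.71), sev fell and 26 of 28 were not called. The gene vn encodes a ligand of the receptor.

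A few phototransduction genes rose in CCs. Of 34 genes 4 rose (11.8%, beside 4.64% of all genes), 0 fell and 30 were not called. The G protein gamma subunit gene Ggamma30A rose from 7.00 to 11.36, against 15.56 in adult PRs. The myosin and kinase gene ninaC rose from 0.84 to 7.04, and the phosphatase gene rdgC, which turns rhodopsin off, rose from 3.43 to 5.89. The gene eys, which encodes a secreted protein that fills the space between rhabdomeres, rose from 5.56 to 9.45.

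The apical extracellular matrix held several of the largest rises. Of 30 zona pellucida domain, mucin and other apical matrix genes 13 rose (43.3%), 0 fell and 17 were not called, with a median of 2.32. Such proteins form the layer that covers epithelial cells before the cuticle is made. The gene zye rose from 0.84 to 9.72. The mucin genes Muc96D (1.41 and 8.52), Muc14A (5.32 and 10.35) and Muc12Ea (2.43 and 7.76) rose, while Muc30E and Muc68E were listed at 0 in larval CCs and stood at 8.59 and 7.34 in pupal CCs. The mucin-related gene Mur89F, one of the 20 largest rises, went from 1.58 to 8.66. Not all matrix genes rose: of the 27 members at 8 units or more 5 lay below 0, among them the zona pellucida gene dyl (4.05 and 1.21), which was not called.

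Over whole lists, the shares of chitin and cuticle genes that rose were near that of all genes, but most cuticle protein genes were too low to be called. Among 69 genes of chitin enzymes and cuticle tanning, 3 rose (4.35%, beside 4.64% of all genes), 2 fell and 64 were not called, with a median of 0.02, or -0.28 with equal library totals. Beside Cht5, the chitin deacetylase gene Cda5 rose from 5.40 to 9.53 and dsx-c73A, the other gene that rose, from 3.03 to 5.75. The chitin-binding gene Gasp and the chitin deacetylase gene serp fell, from 10.26 to 8.05 and from 8.90 to 6.80. The chitin synthase gene kkv stood at 8.74 and 7.14 and was not called. Of 117 cuticle protein genes of the Cpr, Twdl and Ccp families, 6 rose (5.13%) and 0 fell, and 98 were under 8 units in both libraries. Apart from Cpr72Ea and Cpr100A (2.84 and 8.84), these were Cpr97Eb (2.43 and 7.20), Cpr49Ae (0 and 5.71), Cpr76Bc (0 and 5.68) and Cpr92F (2.43 and 5.10). The 19 cuticle protein genes at 8 units or more had a median of 2.00, beside 0.38 for all genes at that level. Of these 19 genes 16 lay above 0 and 3 below. Their median was 1.07 with 16 units added. The chitinase, a deacetylase and a few cuticle protein genes thus rose, while most of the chitin list was not called.

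**Figure D4:**
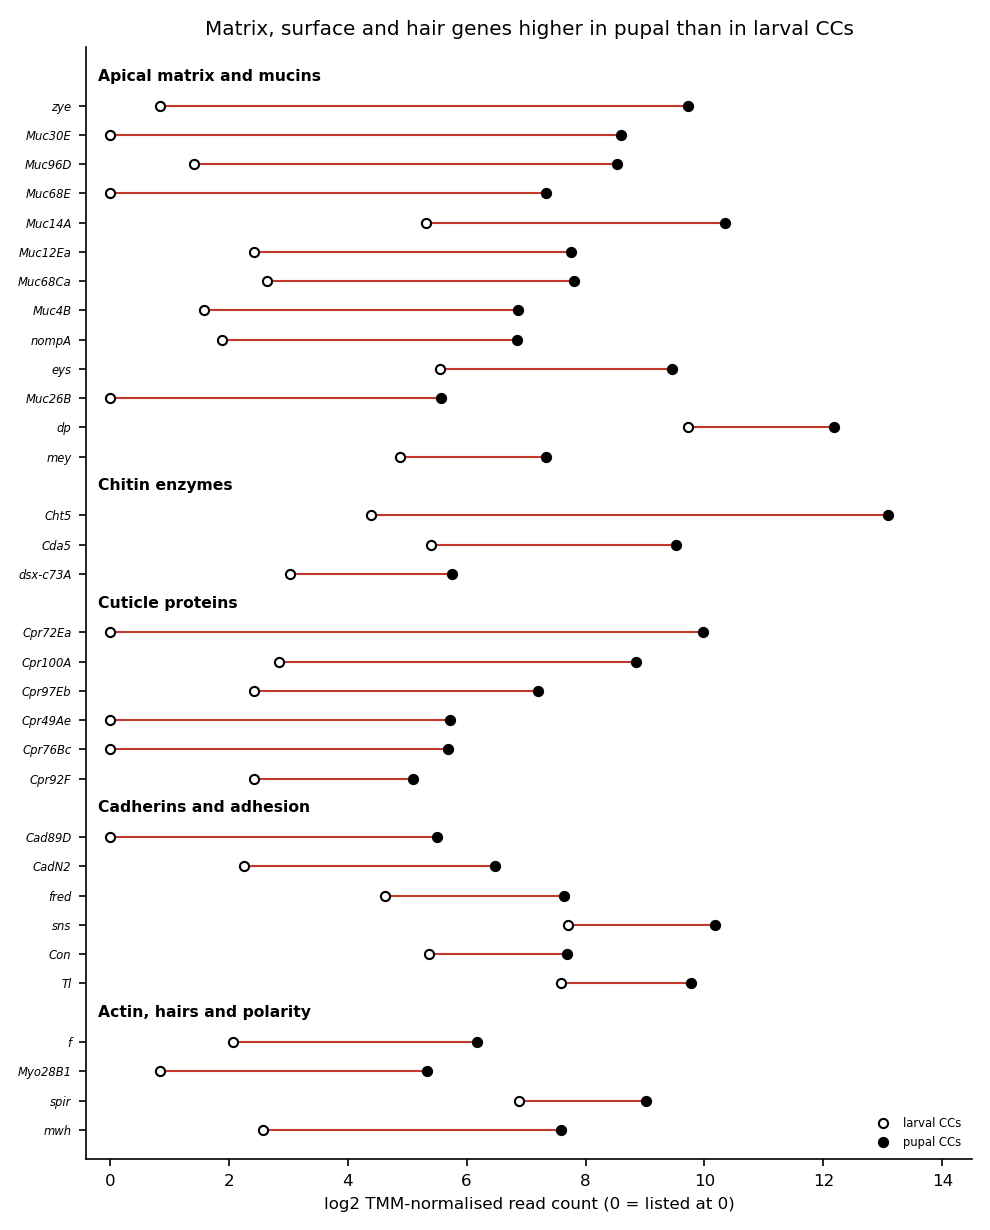
Log2 TMM-normalised read counts (x axis) of matrix, adhesion, actin and polarity genes called higher in pupal CCs (y axis, in 5 groups), with open circles for larval CCs and filled circles for pupal CCs. The chitinase gene Cht5 spans 4.39 to 13.09, and Cpr72Ea, Muc30E and Cad89D start from a listed 0.

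Cell adhesion genes moved in part towards higher levels. Of 32 cadherin, nephrin-like and related genes 7 rose (21.9%, beside 4.64% of all genes), 1 fell and 24 were not called (median 0.64). The list also holds tx (0 and 5.46), which encodes a bHLH transcription factor and no adhesion protein, and without it 6 of 31 rose (median 0.53). The cadherin gene Cad89D was listed at 0 in larval CCs and stood at 5.50 in pupal CCs, and the N-cadherin gene CadN2 rose from 2.26 to 6.48. Its neighbour CadN, whose product holds CCs together, stood at 11.00 and 12.00 and was not called. The immunoglobulin genes fred and sns rose from 4.62 to 7.64 and from 7.71 to 10.18. The product of sns is a nephrin that acts in the cell lattice of the pupal eye. The leucine-rich repeat gene Con rose from 5.36 to 7.69. Cad74A fell from 8.78 to 6.59, and the E-cadherin gene shg, at 10.06 and 8.49, was not called.

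Junction and matrix genes at the sides and base of the cell showed single changes within lists that were otherwise not called. Of 25 septate junction genes 1 fell and 0 rose (median -0.02). This was nrv2, which encodes a beta subunit of the sodium pump (9.60 and 6.42). Its relative nrv3 rose from 7.91 to 10.34, while the alpha subunit gene Atpalpha stood at 11.00 and 12.14. Among 8 innexin genes of gap junctions shakB rose from 1.58 to 7.82, a difference of 5.04. The innexin genes ogre (10.65 and 8.65) and inx2 (10.90 and 9.71) were not called, though ogre, at -1.98, lay just outside the rule. Of 21 integrin genes if fell and the others were not called. In the list of 26 basement membrane and secreted matrix genes LanA fell (9.79 and 6.79). The peroxidase gene Pxn (2.58 and 7.81) and Tl (7.59 and 9.77) rose in this list. Tl encodes a receptor and no matrix protein, and it missed the rule with equal library totals. LanA and if encode a laminin chain and the PS2 integrin chain, which binds extracellular matrix.

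Few genes of the cytoskeleton, cell polarity and bristles were called. Of 51 actin and myosin genes 3 rose (5.88%, beside 4.64% of all genes), 0 fell and 48 were not called, with a median of 0.06, or -0.24 with equal library totals. The gene f (forked), which bundles actin in bristles, rose from 2.06 to 6.17, the myosin gene Myo28B1 from 0.84 to 5.34, and the actin nucleator gene spir from 6.88 to 9.02. The gene mwh, which limits each wing cell to a single hair, rose from 2.58 to 7.59 and was the only one of 25 polarity genes called. The hair gene sha, singled out after its values were seen, was listed at 0 and then stood at 5.62. The gene nompA, whose product is a zona pellucida protein that ties sensory dendrites to bristles, rose from 1.88 to 6.84. Of 19 bristle lineage genes it was the only one to rise, ase fell (8.06 and 5.91) and the median was 0.17, or -0.12 with equal library totals. Other markers of bristle cells were not called: sens stood at 4.06 and 2.65, ss at 5.04 and 4.10 and neur at 7.86 and 8.03, and the 5 bristle markers summed to 619.9 and 907.7 units. The part of bristle cells in these values was not tested. In the list of tubulin and microtubule genes tau rose from 6.62 to 9.61 and 23 of 24 were not called.

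The widest rise by number of genes was that of genes of neuronal surfaces and excitability. Of 282 genes in 6 neuronal lists 110 rose (39.0%), 0 fell and 172 were not called, with a median of 2.19 over the 231 at 8 units or more. These are the lists of Dpr, DIP, Beat and Side receptors, channels, transmitter receptors, synaptic vesicle and active zone genes, neuropeptides with their receptors, and the neuronal cytoskeleton with the Elav family. With axon guidance and phototransduction genes, 114 of 342 rose (33.3%). The genes of the 6 lists made up 15.9% of all genes that rose.

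Cell surface receptors of the Dpr, DIP, Beat and Side families, which pair neurons with their partners by binding each other across cells, rose in 33 of 66 cases and fell in 0, with a median of 2.18. The largest rise was that of dpr17, from 0.84 to 7.06, followed by beat-IIa, from 4.21 to 8.92. CG42343 (DIP-beta) was listed at 0 in larval CCs and stood at 5.75 in pupal CCs. CG31708 (DIP-zeta, 2.26 and 6.86), dpr3 (3.02 and 7.30) and beat-IIIb (2.26 and 6.79) rose as well. In adult CCs DIP-beta was again listed at 0, and DIP-zeta stood at 3.04. Of 30 netrin, slit, semaphorin, ephrin and related genes 0 were called, with a median of 0.45, and the receptor gene robo, for example, stood at 9.68 and 10.60. The difference between these lists was not tested.

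Of the neuronal lists, those of channels and transmitter receptors had the largest shares of genes that rose. Of 36 voltage-gated and potassium channel genes 20 rose (55.6%) and 0 fell, and all 33 at 8 units or more lay above 0. The gene unc79, part of the sodium leak channel complex, rose from 3.03 to 9.50, the potassium channel gene Shab from 1.94 to 7.96, and qvr, which encodes a modulator of the Shaker channel, from 5.10 to 9.49. The calcium channel gene cac (5.39 and 9.52) and the calcium-activated potassium channel genes slo (2.87 and 7.22) and SK (4.50 and 8.46) rose too. Of 50 neurotransmitter receptor genes 32 rose (64%) and 0 fell (median 2.55). They span several transmitters: the nicotinic receptor genes gfA (nAChRalpha7, 4.50 and 10.56), nAcRbeta-96A (3.79 and 8.48) and nAcRalpha-34E (3.47 and 8.04), the dopamine receptor genes DopR (Dop1R1, 2.06 and 8.71) and DopEcR (3.16 and 8.46), and the metabotropic GABA receptor gene GABA-B-R3 (2.43 and 8.12). DopEcR also binds ecdysone.

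Synaptic and peptide genes rose in part. Of 46 synaptic vesicle, active zone and synaptic adhesion genes 15 rose, 0 fell and 31 were not called (median 1.71). The neuroligin genes CG34139 (Nlg4, 2.43 and 7.99) and neuroligin (Nlg2, 6.45 and 10.02), the active zone gene Rim (6.31 and 10.18), the endocytic adaptor gene nwk (3.84 and 7.14) and the complexin gene cpx (7.56 and 10.51) were among them. Of 72 neuropeptide and peptide receptor genes 6 rose (8.33%, beside 4.64% of all genes), and 40 were under 8 units in both libraries. The peptide gene sNPF rose from 1.58 to 8.12, the tachykinin receptor gene Takr99D was listed at 0 and then stood at 6.14, and the receptor gene Dh31-R1 rose from 0.38 to 6.17. CG34411 (Lgr4, 0.84 and 5.47), the receptor gene sNPF-R (4.44 and 6.98) and the peptide precursor gene Nplp1 (3.72 and 6.13) rose too.

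The last of these lists holds general neuronal genes. In the list of neuronal cytoskeleton and RNA-binding genes 5 of 13 rose and 0 fell (median 1.49). Rbp9, an RNA-binding protein gene of the Elav family, rose from 5.70 to 10.40, bru-3 from 5.16 to 8.44 and mub from 10.99 to 13.04. The founding members of this list, elav and futsch, differed by 0.12 and 0.18. Of 44 homeodomain and other neuronal transcription factor genes only the POU genes vvl (3.97 and 7.42) and acj6 (2.79 and 6.22) rose, and 0 fell. The share that rose (4.55%) was near the 4.64% of all genes.

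Genes of retinal glia rose in part. Of 30 glial genes 10 rose (33.3%, beside 4.64% of all genes), 1 fell and 19 were not called, with a median of 1.41. The gene bnb, a member of this list, rose from 7.29 to 13.17, the largest rise in it. Among genes for the handling of transmitters, Gs2, which encodes glutamine synthetase (0.84 and 5.66), and CG1732, which encodes the GABA transporter Gat (1.58 and 5.52), rose, while the glutamate transporter gene Eaat1 stood at 6.56 and 5.72 and was not called. Ndae1, an anion exchanger gene, rose from 2.45 to 6.65. The cytochrome gene Cyp4g15 (0 and 5.47), the neurexin-like gene axo (0.84 and 6.32) and the immunoglobulin gene wrapper (0.84 and 5.46) rose as well. Several defining markers of glia did not pass the rule: repo stood at 3.90 and 5.58, moody at 5.20 and 6.21 and alrm at 1.58 and 4.43. Of 9 glial markers 3 rose and 1 fell, and they summed to 935.9 and 445.9 units, or to 158 and 360.5 units without nrv2. The part of glial cells other than CCs in these rises was not tested.

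Several blood cell, fat body and muscle genes were listed at 0 in larval CCs and above it in pupal CCs. Over all genes the share above 0 also went from 62.6% to 84.7%, so fewer zeros were not particular to these genes. Of 10 hemocyte markers, Pxn and Hml (1.26 and 6.68), which encode a peroxidase of the matrix and a clotting protein, rose and 0 fell, and 5 were listed at 0 in larval CCs and 1 in pupal CCs. Their sum went from 145.4 to 595.8 units. The scavenger receptor genes Sr-CI (0 and 5.37) and nimA (3.26 and 7.22) of the wider hemocyte list rose too. The 8 fat body markers summed to 4.63 and 103.8 units, with 6 listed at 0 in larval and 0 in pupal CCs. Rfabg, which encodes the lipid carrier apolipophorin, rose from 1.26 to 5.81, as did the iron carrier gene Tsf1 (0 and 7.44) and the lipid transfer gene CG15828 (Apoltp, 3.43 and 7.22) of the wider list. The muscle myosin gene Mhc was listed at 0 and then stood at 6.40, and bt, which encodes a giant muscle protein, rose from 5.88 to 7.99. The 11 muscle markers, of which 6 were listed at 0 in larval CCs and 0 in pupal CCs, summed to 925.1 and 1727 units. Most of both sums came from sls (9.60 and 10.31), which was not called. The part of these cell types in the genes that rose was not tested. By contrast, the summed tracheal markers went from 1369 to 354.2 units, where the chitin deacetylase genes verm and serp, at 9.79 and 8.90 in larval CCs, made up nearly all of the larval sum, and the tracheal gene trh stood at 1.48 and 2.39.

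Pigment genes rose in few cases. Of 26 pigment cell and eye pigment genes 3 rose (11.5%, beside 4.64% of all genes) and 0 fell (median 0.65). The 3 were st, which encodes a transporter of pigment precursors (2.96 and 7.23), and cn (2.26 and 5.48) and CG6969 (3.83 and 6.47), which act in the brown ommochrome pathway. The white gene w stood at 5.93 and 5.74. The pigment cell markers summed to 114.8 and 329.0 units, against 96140 in adult CCs. Pdh alone, at 16.53 in adult CCs, made up nearly all of that adult sum, while w stood at 4.87 there. In the list of peripodial, margin and antennal genes salm, dan (7.60 and 4.63) and sob (5.11 and 2.15) fell, 0 rose and 13 of 16 were not called, and the homeotic gene Antp was listed at 0 and then stood at 4.90.

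Genes of sensory organs outside the eye were above 0 in more cases in pupal CCs. Of 288 olfactory, gustatory, ionotropic receptor and odorant-binding genes, the larval library listed 19.8% above 0 and the pupal library 88.9%, beside 70.5% for adult CCs and 21.5% for PRs. Only 6 rose by the rule (2.08%, under the 4.64% of all genes) and 0 fell, and 189 were under 8 units in both libraries. Apart from Obp44a, these were Or83a (0 and 6.74), Obp56a (0 and 6.59), Gr28b (0 and 6.02), Ir94e (0 and 5.90) and Ir47a (0.26 and 5.82). A list of 38 male germline genes, whose known site is the testis, had 36.8% above 0 in larval and 63.2% in pupal CCs, with 1 gene, CG1988 (Mst84B, 2.78 and 5.41), called higher. Over all genes these shares were 62.6% and 84.7%. Low values above 0 were thus more frequent in pupal CCs in lists of several kinds.

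A few stress, immune and death genes rose. Of 25 chaperone genes 3 rose (12.0%) and 0 fell, with a median of 0.78 beside 0.38 for all genes: Hsp22 and Hsp67Bb, which hold the same values in both libraries and may share reads (4.02 and 7.37), and Hsp67Bc (6.51 and 8.65). The inducible Hsp70 genes were not called, with Hsp70Aa, for example, at 8.96 and 9.74. Of 20 immediate-early, JNK and injury genes Thor, which encodes a brake on translation (2.43 and 6.18), and sr (1.66 and 5.58) rose (10%, median 0.83). In the immune list TepII (4.43 and 7.27), spz (1.84 and 5.27) and its receptor Tl rose, and 75 of 78 genes were not called (3.85% rose). The only death gene called was W (hid), which drives the removal of surplus cells in the pupal eye, at 6.23 and 8.60. It was 1 of 19 such genes (5.26%, beside 4.64% of all genes).

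Metabolic lists were largely without calls. None of 89 oxidative phosphorylation and tricarboxylic acid cycle genes, 48 proteasome genes or 35 lipid genes was called, with medians of 0.38, -0.22 and 0.98. In sugar metabolism the glucose transporter gene Glut1 rose (7.44 and 9.62) and the pyruvate kinase gene PyK fell (8.13 and 5.96), with 28 of 30 genes not called. The elongation factor gene Ef1alpha100E rose from 9.53 to 12.94, while its paralogue Ef1alpha48D stood at 14.21 and 12.84 and was not called. The genes are close in sequence, so reads may be split between them. Among translation factors ligatin (eIF2D) was the only one to fall (6.55 and 4.20). Of 193 cytochrome P450 and detoxification genes 4 rose (2.07%) and 2 fell (1.04%), beside 4.64% and 1.07% of all genes. The rises were led by the sugar transferase gene CG17324 (Ugt36F1, 0 and 5.56). The falls were led by the juvenile hormone epoxide hydrolase gene Jheh2 (7.33 and 4.05).

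Signalling and clock genes with single changes completed the lists. Of 39 BMP, activin, Wnt and Hedgehog genes 3 rose (7.69%, beside 4.64% of all genes) and 0 fell. These were the ligand gene Wnt10 (1.26 and 5.35), the activin gene Actbeta (6.38 and 8.57) and Notum, which encodes a secreted Wnt inhibitor (3.34 and 5.74). The clock genes Clk (0 and 5.78) and tim (0.84 and 6.02) rose, while per stood at 5.19 and 3.20 and was not called. Of 34 proton pump genes Vha100-5 (0 and 5.10) and CG31030 (6.01 and 8.08) rose (5.88%, beside 4.64% of all genes). Among 35 tetraspanin genes lbm fell from 6.03 to 1.66 and Tsp42Ej rose from 4.34 to 6.81.

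Called genes differed in the length of DNA they span. Span was taken from the first to the last base of a gene in the Ensembl annotation of the BDGP 6 assembly, for 8725 of the 9297 genes at 8 units or more. In the shortest quintile of genes, up to 1.51 kb, 2.52% rose, and in the longest, from 9.03 kb upwards, 18% rose. For genes that fell the shares were 1.15% and 1.55%, with the highest, 2.87%, in the middle quintile. The median span was 9.27 kb for genes that rose, 2.96 kb for genes that fell and 2.99 kb for all. Long genes are frequent among the neuronal lists, with a median of 34.59 kb in the Dpr, DIP and Beat-Side list, but without these lists 14.4% of the longest quintile and 2.53% of the shortest still rose. Among genes at 8 times the 32 units of the rule or more, the shares that rose were 10.1%, 5.61%, 4.98%, 5.73% and 12.6% from the shortest to the longest quintile, so at high levels both ends exceeded the middle. The part of span in the calls of any list was not tested.

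**Figure D5:**
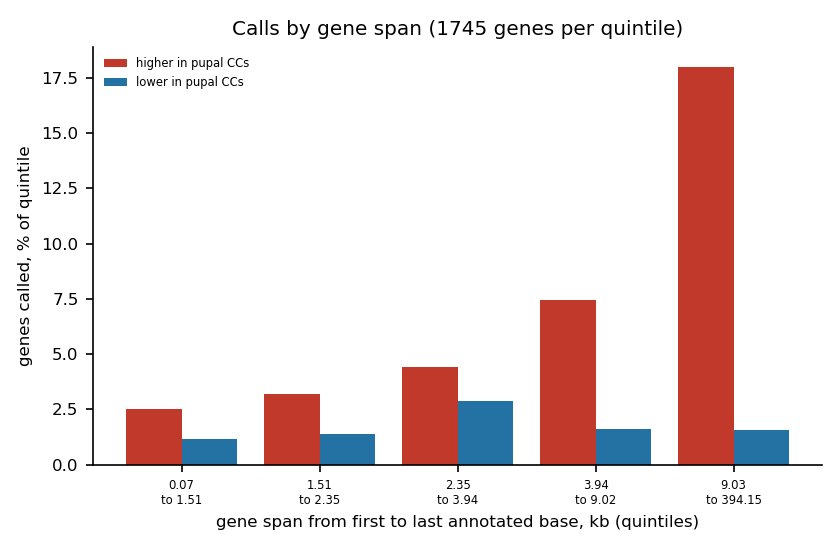
Percent of genes called higher (red) or lower (blue) in pupal CCs (y axis) in quintiles of gene span in kb (x axis), with 1745 genes at 8 units or more in either library in each. The share of genes called higher goes from 2.52% in the shortest quintile to 18% in the longest, while the share called lower stays between 1.15% and 2.87%.

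Every called gene was counted, also those that belong to no list. In at least 1 of the 60 lists were 203 of the 693 genes that rose and 74 of the 160 that fell, and 490 and 86 were in none. The rule cuts through a continuous range of differences. Just inside it were Est-P (2.003), CG6023 (2.006) and CG31030 (2.007) on the higher side and CG10993, klu and dnk (-2.008, -2.010 and -2.023) on the lower side. Just outside it were shep (1.995), fne (1.992) and Sox102F (1.989), and mus301, ogre and slp1 (-1.989, -1.984 and -1.973). A further 88 genes differed by 1.8 to 2 towards higher levels and 37 towards lower ones. Of the called genes 8 share all of their values with another called gene, 4 of them the tal genes, which lie on 1 transcript (5.34 and 2.10), so these count 1 change more than once.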

How the data were processed

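RNA of 2 sorted CC libraries, 1 larval and 1 pupal, was amplified with the NuGEN Ovation system, made into Nextera libraries and sequenced on a HiSeq2500. Per the methods of the authors, reads were aligned to the dm3 genome, counted in Avadis NGS and TMM-normalised together with whole-animal data, and the deposited log2 values list a normalised read count of 1 or less as 0. TopHat2 2.0 and Bowtie 1.0 are listed among the tools of the submitters' processing notes. Values are not divided by gene length, so levels were compared only within a gene. Amplification from few cells may favour some transcripts, and how this moved single genes was not tested.

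The log2 was undone, a listed 0 stayed 0, 4 units were added and the log2 was taken again. A gene was called when this value differed by at least 2 and the higher of both libraries reached 32 units. With 1 library per stage no test was run. List medians cover members that reached 8 units in at least 1 of the libraries. Of 14959 entries 24 repeats, all at 0, were left out, and 5 symbols that a spreadsheet had turned into dates were restored from their gene numbers. The file's symbols were kept, and 14177 genes matched a current symbol. Functional classes were taken from the accessions in the deposited table. Named are the 20 largest rises and the 20 largest falls among called genes that reached 8 times the floor of the rule, the called members of each list (the 6 with the largest difference where a list has more), the marker lists, members not called where a description needs them, and genes picked later with their values known, which are marked as such. The gene lists and members were chosen with earlier results of these data known. Of the list names, 45 were not matched and were left out. The alternatives were 1 or 16 units added, equal library totals, the median log2 ratio set to 0, no floor, a floor 8 times as high, an 8-fold rule, genes above 0 in both libraries only, and no filter on low values. The rule was run on simulated libraries with counting error only. These hold no variation between libraries or from amplification, so they cannot show how often such variation leads to a call. No sequences were used. Python 3.11.15, numpy 2.4.6, pandas 2.3.3 and matplotlib 3.10.9 were used.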

Additional observations from a re-analysis of the deposited data

How the results depend on the processing

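The counts of 693 genes that rose and 160 that fell were within 1.5 times of these values with 1 unit added (740 and 173), equal library totals (595 and 220), the median log2 ratio set to 0 (650 and 181) and genes above 0 in both libraries only (559 and 159). They were smaller with 16 units added (399 and 93), with a floor 8 times as high (169 and 48) and with an 8-fold rule (366 and 43). Without a floor 1262 rose and 171 fell. Of 221 named genes none changed direction, and 59 missed the rule with 16 units added, 20 with equal library totals and 8 with the median log2 ratio set to 0. Of 60 list medians, 12 changed sign under an alternative, and all but that of the innexins (-0.74, or 0.40 without a filter on low values) lay within 0.26 of 0. No paired analysis was possible because each stage has 1 library. The intended search of promoters for motifs was not run, since no promoter sequences were used. Near the floor a value rests on few reads (about 50 by the rough estimate above), so single genes there are the least precise.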

Other observations

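The genes in these paragraphs were picked with their values known. Among transcription factor genes outside the lists, NfI, a nuclear factor I gene, rose from 5.23 to 9.12 on the log2 scale, the forkhead gene FoxP from 4.90 to 8.23, the GATA gene grn from 1.58 to 5.53 and bab1, a BTB gene of limb patterning, from 2.26 to 5.21. Sox21b (5.18 and 7.57), kn (5.19 and 7.56) and fkh (3.35 and 5.91) rose too, but not with equal library totals. The Sp-family gene btd fell from 5.89 to 1.93, dmrt99B from 7.42 to 4.42, opa from 7.69 to 4.84, apt from 8.31 to 5.88, slp2 from 7.65 to 5.43 and klu from 8.78 to 6.73. The zinc finger gene peb (hindsight), which acts in PRs and CCs, fell from 9.06 to 6.86, beside 4.06 in adult CCs and 8.80 in adult PRs. By the functional classes of the deposited table, also chosen after the values were seen, 16 of 385 transcription factor genes rose (4.16%, beside 4.64% of all genes) and 23 fell (5.97%, beside 1.07%).

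Several families of cell surface and secreted proteins were outside the lists. The kekkon genes, which encode transmembrane proteins with leucine-rich repeats, rose in 4 cases: kek2 (6.44 and 9.19), kek3 (4.63 and 7.62), kek4 (2.96 and 6.50) and kek6 (4.50 and 7.27). The mucin-related genes Mur11Da and Mur29B were listed at 0 in larval CCs and stood at 7.95 and 5.38 in pupal CCs. The receptor tyrosine kinase gene Alk rose from 7.24 to 9.55, but not with equal library totals. The transporter genes CG42235 (kumpel) and CG9657 (rumpel), known from glia, were listed at 0 and then stood at 6.48 and 5.16. The opsin gene Rh7 was listed at 0 in larval CCs and stood at 5.65 in pupal CCs. The non-coding RNA gene noe rose from 9.66 to 12.45.

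Some genes that rose are known from tissues far from the eye. Axonemal dynein genes act in cilia and sperm tails: Dhc98D rose from 1.92 to 6.96 and Dhc36C from 1.26 to 6.47, and CG17150 (Dnah3), listed at 0, then stood at 5.74, as did the dynein regulator gene Gas8, at 5.09. The eggshell genes Cp7Fc (0 and 5.90) and dec (0 and 5.25) rose as well, and 8 of 38 genes of the chorion class rose (21.1%, against 4.64% of all genes).

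In the functional classes of the table, genes of the cell surface and of the nucleus differed in their counts. Of 380 plasma membrane genes 42 rose (11.1%) and 6 fell (1.58%), and of 1324 nuclear genes 31 rose (2.34%) and 56 fell (4.23%). Extracellular matrix structural constituents rose in 16 of 27 cases (59.3%) and fell in 0. Over all genes 4.64% rose and 1.07% fell, so the share of plasma membrane genes that fell was near that of all genes. Of the 84 genes on chromosome 4, 11 rose (13.1%) and 0 fell, while on the other chromosome arms 3.36% to 5.02% rose. These shares were not tested.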
